A study of Mus musculus with 4 samples.

Results

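Transcripts of 37 lysosomal genes were followed in the mouse mammary carcinoma cell line 4T1 with and without disruption of CD95. CD95 is the death receptor for Fas ligand and is encoded by Fas. The genes were chosen by name, as soluble hydrolases and their helper proteins, membrane proteins, subunits of the proton pump, the transcription factor TFEB and the cargo receptor p62. Of the 37, 36 reached 1 TPM (a level corrected for transcript length and for the library's total) in at least 1 library, out of 24411 genes listed and 12091 that reached this level. The exception was Ctsf, a cysteine protease gene, which was listed at 0 in all 4 libraries.

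The series holds 4 poly(A)-selected RNA-seq libraries, of which 2 are controls and 2 are labelled CD95ko. Per the labels' protocols, cells carrying the lentiCas9-Blast virus were selected with blasticidin and transfected with a pair of synthetic guide RNAs directed at exon 9 of the CD95 gene. Single sorted cells were then expanded, and their deletions were checked by genomic PCR. Each CD95ko library therefore represents 1 clone. The protocols name the RNA sources as Ctr, vCas9, FAS54 and FAS69, so an unmodified line and a Cas9-expressing line served as sources besides the clones, but no title ties either control library to one of them. No treatment other than the genetic one is given.

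Lysosomes are acidic organelles in which proteins, glycans and lipids delivered by endocytosis and autophagy are broken down. Most soluble hydrolases are made in the endoplasmic reticulum, tagged with mannose 6-phosphate and sorted to the lysosome, where the vacuolar proton pump (V-ATPase) keeps the lumen acidic. TFEB and its relatives activate many of these genes by binding an E-box-related promoter element known as CLEAR, and the kinase complex mTORC1 on the lysosomal surface holds TFEB in the cytoplasm when nutrients are plentiful. In carcinoma cells, cathepsins can also be secreted and cleave matrix outside the cell.

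The letters of the E-box core CACGTG, on which the CLEAR element is built, were searched in RefSeq promoter windows (GRCm38.p6, the assembly of mm10), which run from 250 bases before to 50 bases after each start site. Longer forms were TCACGTGA and GTCACGTG, searched on both strands. These overlap each other and contain the core. Windows were found for 32 of the 37 genes. At least 1 core was present in 12 of their 37 windows (32.4%), against 10.2% of the 10944 windows of tested genes and 7.15% of all 32851 windows. A longer form was present in 10 of the 37 windows (27.0%), against 4.52% and 2.43%. The 121 windows of other lysosome and autophagy genes, listed further below, held a core in 21.5% and a longer form in 15.7%. The carriers of a longer form were Ctsa, Ctsd, Lgmn, Gla, Glb1, Naglu, Lamp1, Mcoln1, Atp6v0d1 and Atp6v1a. None of the 8 windows of the lipid hydrolases and their soluble partners held a core, nor did the 4 windows of Tfeb and Sqstm1.

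The sites below show these letters in genes of several roles, as a pair in Ctsa and Mcoln1 and as the nearer of 2 upstream sites in Ctsd and Gla. Capitals mark the core with any longer form around it, each line reads 5′ to 3′ on the gene's strand, and all lie in the promoter windows described above.
Ctsa, upstream site, chr2:164833752-164833775, forward strand: gcaaactGTCACGTGAtgcagatg
Ctsa, second site, chr2:164833769-164833792, forward strand: gcagatgcTCACGTGACcagagct
Ctsd, chr7:142387911-142387934, reverse strand: cccgcgtcTCACGTGACccgttga
Gla, chrX:134601185-134601208, reverse strand: gatctcgGTCACGTGAgcaactct
Mcoln1, first site, chr8:3500439-3500462, forward strand: cgcgcttGTCACGTGttcagttca
Mcoln1, second site, chr8:3500465-3500488, forward strand: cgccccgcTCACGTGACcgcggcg
Atp6v0d1, chr8:105566053-105566076, reverse strand: tactgcgGTCACGTGAgacgcggt
Ctsa has 2 promoter windows, of which 1 held the core. In that window the core letters begin 12 bases before its annotated start and again 5 bases after it. In Atp6v0d1 they begin 3 bases before the annotated start. Lamp1 held 4 cores within its window, of which 1 was part of a longer form. A match of letters is a description and not evidence of binding. In the 10 carriers of a longer form the median log2 fold change, CD95ko minus control, was 0.30, and it was 0.23 over the 21 tested genes with a window that lacked both longer forms.

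**Figure D1:**
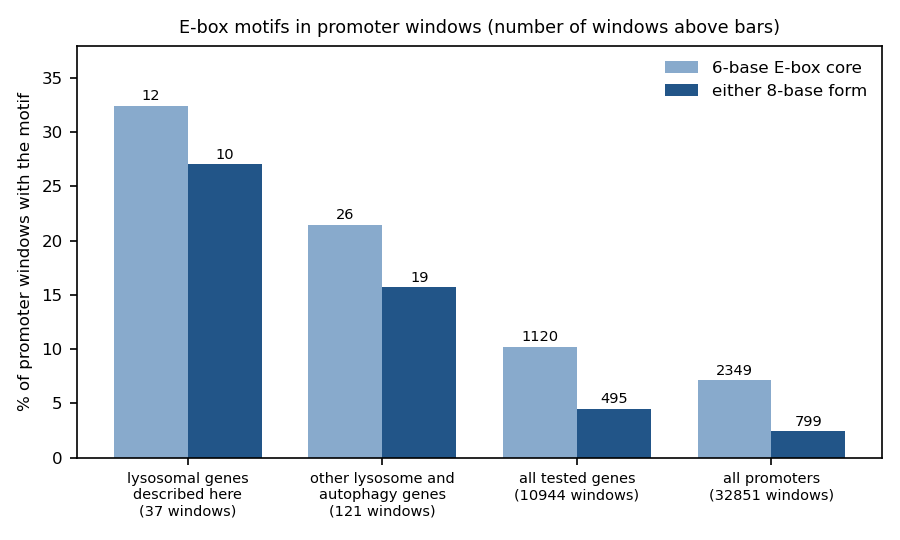
Percent of 300-base promoter windows that hold the 6-base E-box core (light bars) or either 8-base form (dark bars), with the number of windows above each bar. The lysosomal genes described here reach 32.4% and 27.0%, the other lysosome and autophagy genes 21.5% and 15.7%, and all tested genes 10.2% and 4.52%.

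Each library listed between 11193 and 12010 genes above 0, and sequencing depth is unknown because TPM carries no read number. The median TPM of the 11167 tested genes (at least 1 TPM in at least 2 libraries) was 16.3 in control 2 and between 21.3 and 22.9 in the other libraries. Fas, checked first, had 49.4 TPM and 39.2 TPM in controls 1 and 2, 15.8 TPM in CD95ko 1 and 49.5 TPM in CD95ko 2, so its transcript in CD95ko 2 was at the level of the controls. A TPM for the whole gene does not show whether exon 9 is deleted and so does not check that label, and every direction below refers to the libraries as labelled. All 8 epithelial markers were present in each library, with a summed level of 4835 and 4489 TPM in the controls and of 6866 and 10432 TPM in CD95ko 1 and 2. Both clones lay above both controls for 6 of the 8 and below both for 1, against 29.2% and 18.3% of all tested genes. The lower one was Cldn3, at 671 and 615 TPM in the controls and 441 and 336 TPM in the clones. Krt14 overlapped, at 24.1 and 20.65 TPM in the controls, 6.98 TPM in CD95ko 1 and 158 TPM in CD95ko 2. Phagocytes are rich in lysosomal transcripts, and of 12 of their markers 10, among them Ptprc, Adgre1, Itgam and Lyz2, were listed at 0 in all 4 libraries. Csf1r and Cd14 made up the rest, with a sum of 13.3 and 4.13 TPM in the controls and of 35.2 and 107 TPM in CD95ko 1 and 2. Csf1r was at 1.22 and 0 TPM in the controls and 22.2 and 5.07 TPM in CD95ko 1 and 2. Cd14 was at 12.04 and 4.13 TPM in the controls and 12.95 and 102 TPM in CD95ko 1 and 2. For each, both clones lay above both controls, but the higher clone was not the same. The part of Csf1r and Cd14 expression in the results below was not tested. Of 8 fibroblast markers 5 were listed at 0 throughout, and the sum of the list lay between 0.97 and 4.52 TPM. In such bulk libraries, fewer cells of a kind and less RNA per cell cannot be told apart.

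The lysosomal genes were well expressed and spanned a wide range of levels. Mean TPM over the 4 libraries ran from 8.87 for Npc1 to 2358 for Sqstm1, with a median of 51.3 TPM against 21.6 TPM over all tested genes. The 37 genes summed to 0.823% of all TPM in control 1, 0.783% in control 2, 0.723% in CD95ko 1 and 0.925% in CD95ko 2, so the highest and the lowest share both belonged to the clones. The order of mean levels was led by Sqstm1, Cd63, Ctsl, Lamp1 and Ctsz, a cargo receptor, a tetraspanin, a cysteine endopeptidase, a membrane glycoprotein and a cysteine carboxypeptidase. Among these, Cd63 at 823 to 1949 TPM overlapped both Sqstm1 at 1718 to 2850.0 TPM and Ctsl at 629 to 1187 TPM, and Ctsz at 369.5 to 558 TPM overlapped Lamp1 at 424 to 532 TPM. Compared within each library, Sqstm1 lay above Cd63 and Ctsl lay above Lamp1 in every one.

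**Figure D2:**
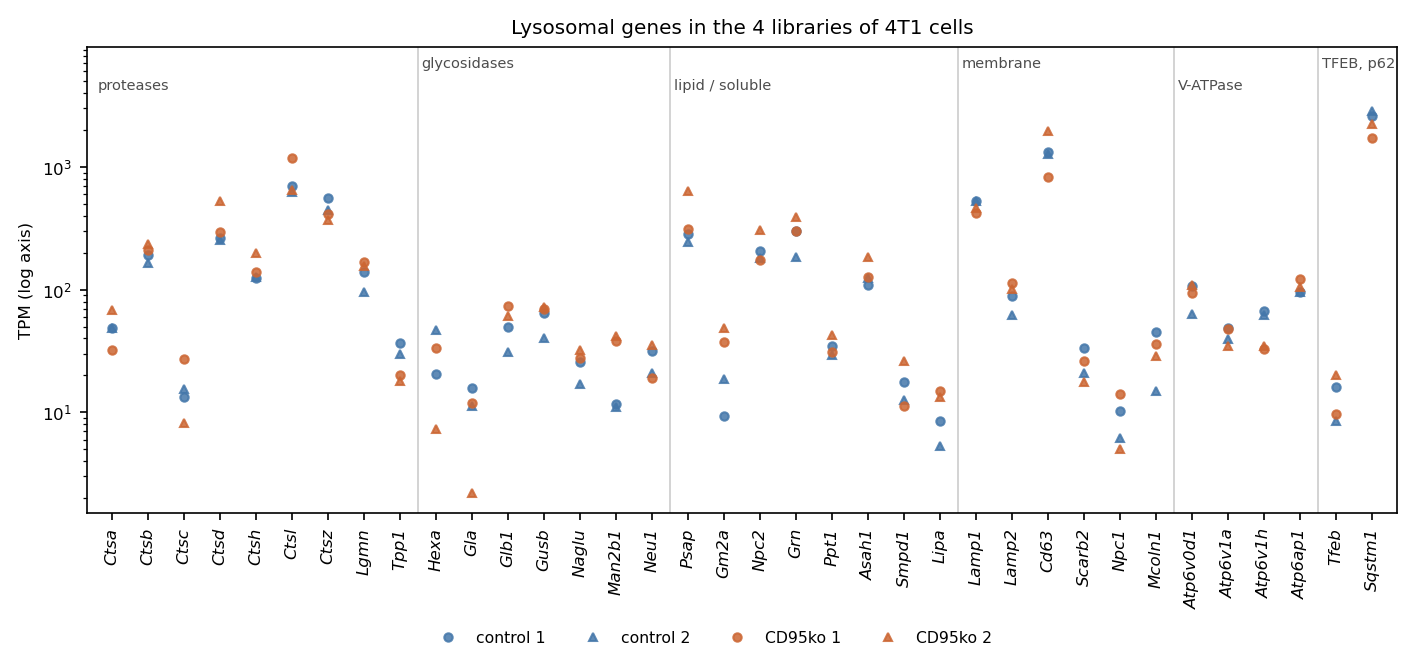
TPM of the 36 detected lysosomal genes in each of the 4 libraries, on a log axis, ordered by role; circles are replicate 1 and triangles replicate 2, blue for control and orange for CD95ko. Levels range from 2.18 TPM (Gla in CD95ko 2) to 2850.0 TPM (Sqstm1 in control 2), and the median absolute log2 difference is 0.42 between the clones, 0.31 between the controls and 0.40 between the groups.

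The comparison of CD95ko with control asks whether the libraries labelled CD95ko differ from the controls in this set of transcripts. Each clone passed through single-cell sorting, while the control sources are named as an unmodified line and a Cas9-expressing line. Disruption of CD95 and selection of single clones cannot be told apart in this contrast. Neither can Cas9 delivery and blasticidin, wherever a control came from the unmodified line. None of the 36 tested genes passed an adjusted p of 0.05 in limma, with a background of 0.0537% of all tested genes, and the smallest adjusted p was 0.147. An unadjusted limma p under 0.05 was reached by 3 of the 36 (8.33%), against 14.9% of all tested genes. These were Man2b1 and Gm2a on the higher side, where the background was 9.25%, and Atp6v1h on the lower side, where it was 5.68%. The groups did not overlap for 19 genes (52.8%), against 47.6% of all tested genes. Both clones lay above both controls for 14 genes (38.9%), where 29.2% of all tested genes did so, and below both for 5 genes (13.9%), where 18.3% did so. The log2 fold change was above 0 for 25 of the 36 genes, against 57.4% of all tested genes, and its median was 0.24 against 0.13. Quantile normalization moved the median of all tested genes to 0.002 and that of the lysosomal genes to 0.16. It left 21 of 36 above 0, against 50.1% of all tested genes. It gave 13 genes above and 7 below both controls, where 26.1% and 25.3% of all tested genes lay. Under it Tpp1 joined Atp6v1h below an unadjusted limma p of 0.05 on the lower side, where 8.01% of all tested genes lay. Both sides together held 4 of the 36 genes (11.1%), against 16.7% of all tested genes.

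Some of these counts rested on single libraries, and a fit without 1 library assumes that the one left in its group varies like the other group. Without CD95ko 1 the adjusted limma threshold was passed by Ctsd and Psap, in a fit in which 9.26% of all tested genes passed. Lysosomal genes with an unadjusted p under 0.05 numbered 6 without CD95ko 1, 6 without CD95ko 2, 2 without control 2 and 1 without control 1, and the shares of all tested genes in those fits were 24.3%, 12.2%, 4.20% and 8.33%. Without CD95ko 1 the remaining clone lay above both controls for 23 genes and below both for 11, where 42.8% and 36.2% of all tested genes lay. The lower count was 10 without CD95ko 2 and 9 without control 2, where 27.0% and 36.3% of all tested genes lay. The median log2 fold change of the lysosomal genes was 0.43 without CD95ko 1, 0.17 without CD95ko 2, 0.39 without control 1 and 0.10 without control 2, beside 0.10, 0.19, 0.31 and -0.06 over all tested genes in those fits. The fit without CD95ko 2 was the one of these in which the lysosomal median lay below that of all tested genes.

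On the log2(TPM + 1) scale, differences over 2-fold in every clone-control pair were found for 1 gene, Man2b1, in the upward direction, against 3.53% of all tested genes, and for none downward, against 1.96%. With 2 libraries in each group the median standard error was 0.38 on the log2 scale, and the 95% limma interval lay within a 2-fold change either way for 4 genes, Lamp1, Cd63, Atp6v1a and Atp6ap1. For the other 32 tested genes a change beyond 2-fold in at least one direction was within the interval. Nothing in the labels says that the libraries of a group come from repeated cultures of 1 line, so the p-values refer to these libraries only. They set the group difference against a variance that limma drew toward a trend over all tested genes.

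**Figure D3:**
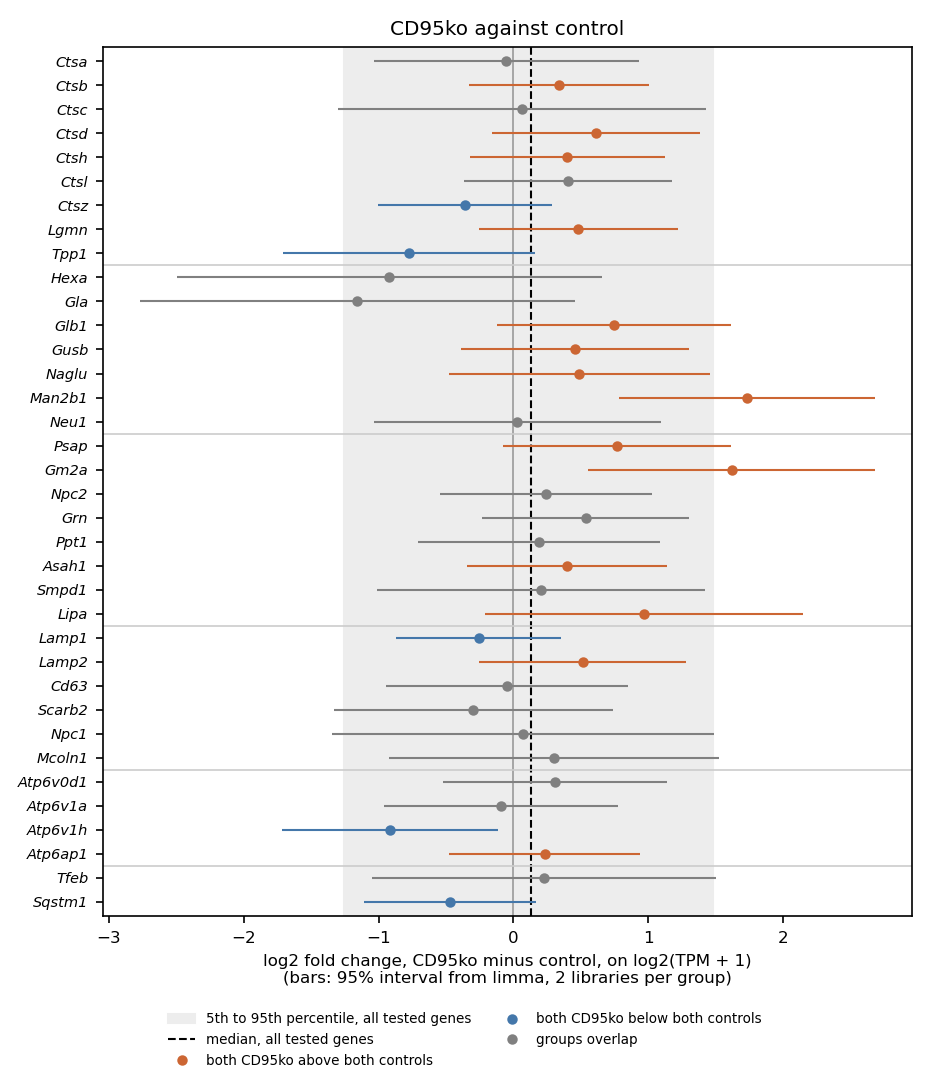
Log2 fold change, CD95ko minus control, on the log2(TPM + 1) scale with its 95% limma interval for 36 lysosomal genes, ordered by role as in the plot of levels; orange and blue mark genes whose groups do not overlap (14 above, 5 below). The grey band holds the 5th to 95th percentile of all tested genes (-1.25 to 1.49); Man2b1 (1.73) and Gm2a (1.62) lie beyond it, and 3 intervals leave out 0.

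Of the 10 protease genes 9 were detected, and none had an unadjusted limma p under 0.05. Both clones lay above both controls for Ctsb, Ctsd, Ctsh and Lgmn and below both for Ctsz and Tpp1. Ctsd, on chromosome 7, encodes the aspartic protease cathepsin D. It was listed at 263 and 252 TPM in the controls, 296 TPM in CD95ko 1 and 527 TPM in CD95ko 2 (log2 fold change 0.61 ± 0.34 SE, limma adjusted p = 0.43). CD95ko 1 stood close to the controls, and CD95ko 2 stood well above the other 3 libraries. Without CD95ko 1 the limma adjusted p of Ctsd was 0.0452. Of the 25-base stretches of Ctsd transcripts 33.4% also occur in Gm49369, which was not analysed here. How far this affects the listed level of Ctsd was not tested.

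The opposite clone was high for Ctsl, which encodes cathepsin L. Its levels were 693 and 629 TPM in the controls, 1187 TPM in CD95ko 1 and 646 TPM in CD95ko 2 (log2 fold change 0.41 ± 0.34 SE, limma adjusted p = 0.604). CD95ko 2 fell between the controls. Without CD95ko 2 the log2 fold change was 0.84, and without CD95ko 1 it was -0.03. Ctsc, which encodes the dipeptidyl peptidase that activates granule serine proteases, was listed at 13.2 and 15.6 TPM in the controls, 27.2 TPM in CD95ko 1 and 8.13 TPM in CD95ko 2, so that the clones flanked the controls on either side. Ctsa, the carboxypeptidase that also shields neuraminidase and beta-galactosidase, showed the reverse arrangement, with 48.2 and 48.6 TPM in the controls, 31.9 TPM in CD95ko 1 and 67.9 TPM in CD95ko 2.

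For the other detected proteases the groups did not overlap. Ctsb (cathepsin B) was listed at 189.95 and 164 TPM in the controls and 209.7 and 237 TPM in CD95ko 1 and 2. Ctsh (an aminopeptidase) was listed at 124 and 128 TPM in the controls and 139.95 and 199 TPM in CD95ko 1 and 2. Lgmn, the asparaginyl endopeptidase that matures other cathepsins, was listed at 139.8 and 96.2 TPM in the controls and 168 and 157 TPM in CD95ko 1 and 2. For these 3 genes the clones lay above the controls by less than 2-fold in every pair. On the lower side, Ctsz (cathepsin Z) was listed at 558 and 449.5 TPM in the controls and 413 and 369.5 TPM in CD95ko 1 and 2. Tpp1, a tripeptidyl peptidase whose loss causes a childhood neuronal storage disease, was listed at 37.1 and 29.8 TPM in the controls and 20.2 and 17.9 TPM in the clones (log2 fold change -0.77 ± 0.41 SE, limma adjusted p = 0.412). Of the 9 detected proteases, 6 had a log2 fold change above 0 and 3 below, and Ctsc passed from the first to the second kind under quantile normalization (0.06 to -0.12).

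Among the 7 glycosidases, Man2b1 had the largest difference of the whole set. Man2b1 (chromosome 8, 85082730 to 85098739, GRCm38.p6) encodes the lysosomal alpha-mannosidase that trims N-linked glycans during glycoprotein breakdown. It was listed at 11.7 and 11.1 TPM in the controls and 38.2 and 42.2 TPM in CD95ko 1 and 2. The groups were far apart and each was narrow. The log2 fold change was 1.73 ± 0.42 SE, a 3.33-fold difference on the TPM + 1 scale, with a limma p of 0.00266 before and 0.147 after adjustment over all genes. It ranged from 1.66 to 1.80 when each library in turn was left out. Man2b2, a second acid mannosidase gene outside the set, was listed at 25.6 and 14.4 TPM in the controls and 72.8 and 63.2 TPM in CD95ko 1 and 2 (log2 fold change 1.76 ± 0.42 SE, limma adjusted p = 0.144).

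Glb1 (beta-galactosidase), Gusb (beta-glucuronidase) and Naglu (an N-acetylglucosaminidase of heparan sulfate breakdown) also had both clones above both controls, without an unadjusted p under 0.05. Glb1 was listed at 49.2 and 31.2 TPM in the controls and 73.0 and 60.6 TPM in CD95ko 1 and 2. Gusb was listed at 65.1 and 40.6 TPM in the controls and 69.8 and 72.3 TPM in CD95ko 1 and 2. Naglu was listed at 25.9 and 17.1 TPM in the controls and 27.8 and 32.5 TPM in CD95ko 1 and 2. In Gusb and Naglu, control 1 lay close to CD95ko 1, and it was control 2 that was low. Neu1 (sialidase) overlapped between groups, with 31.4 and 20.9 TPM in the controls and 19.1 and 35.7 TPM in CD95ko 1 and 2.

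The other glycosidases were low in 1 clone only. Gla, which encodes alpha-galactosidase A, the enzyme missing in Fabry disease, was listed at 15.8 and 11.2 TPM in the controls, 12.0 TPM in CD95ko 1 and 2.18 TPM in CD95ko 2 (log2 fold change -1.16 ± 0.71 SE, limma adjusted p = 0.478). Hexa encodes the alpha subunit of beta-hexosaminidase A, the enzyme of Tay-Sachs disease, and was listed at 20.6 and 46.5 TPM in the controls, 33.3 TPM in CD95ko 1 and 7.34 TPM in CD95ko 2 (log2 fold change -0.92 ± 0.69 SE, limma adjusted p = 0.567). CD95ko 1 sat between the controls for both genes, and the log2 fold change without CD95ko 2 was -0.14 for Gla and 0.10 for Hexa.

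All 8 genes for lipid hydrolases and their soluble partners had a log2 fold change above 0, except Smpd1 under quantile normalization (-0.02), with a background of 57.4%, and their median was 0.47 against 0.13 over all tested genes. Both clones lay above both controls for 4 of the 8, where 29.2% of all tested genes did so. Without CD95ko 2 the log2 fold change was below 0 for Npc2 (-0.16), Ppt1 (-0.042) and Smpd1 (-0.37). Gm2a, which encodes the activator that lifts ganglioside GM2 from membranes for hydrolysis by beta-hexosaminidase A, was listed at 9.42 and 18.5 TPM in the controls and 37.4 and 49.0 TPM in CD95ko 1 and 2. Both clones stood well above both controls. The log2 fold change of Gm2a was 1.62 ± 0.47 SE (limma adjusted p = 0.187, unadjusted 0.00755), and it lay between 1.17 and 2.07 when each library in turn was left out. Without control 1 the unadjusted limma p of Gm2a was 0.0693. Gm2a was thus higher in both clones, while Hexa, the gene of the enzyme it serves, was lowest in CD95ko 2.

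Psap encodes the precursor of the saposins, small activators of sphingolipid hydrolases. It was listed at 282 and 243 TPM in the controls, 312 TPM in CD95ko 1 and 641 TPM in CD95ko 2 (log2 fold change 0.77 ± 0.37 SE, limma adjusted p = 0.376). As for Ctsd, CD95ko 1 was near the controls and CD95ko 2 stood apart. Without CD95ko 1 the limma adjusted p of Psap was 0.0146. Lipa, the acid lipase that frees cholesterol from its esters, was listed at 8.47 and 5.31 TPM in the controls and 14.9 and 13.4 TPM in CD95ko 1 and 2 (log2 fold change 0.97 ± 0.52 SE, limma adjusted p = 0.416). Asah1 (acid ceramidase) was listed at 109 and 124 TPM in the controls and 127 and 186 TPM in CD95ko 1 and 2. In Asah1 the gap between the nearest libraries of the groups was small.

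Groups overlapped for the other genes of this kind. Grn, the precursor of the granulins and a secreted growth factor in tumours, was listed at 303 and 183 TPM in the controls and 302 and 388 TPM in CD95ko 1 and 2, with control 1 level with CD95ko 1. Npc2, which carries cholesterol to NPC1 in the lysosomal membrane, was listed at 206 and 182 TPM in the controls and 173 and 304 TPM in CD95ko 1 and 2. Smpd1 (acid sphingomyelinase, which releases ceramide) was listed at 17.6 and 12.7 TPM in the controls and 11.3 and 26.4 TPM in CD95ko 1 and 2. CD95ko 2 was the highest library for each of these genes. Ppt1, a thioesterase that removes palmitate from proteins, was listed at 34.5 and 29.3 TPM in the controls and 30.8 and 43.0 TPM in CD95ko 1 and 2.

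The 6 membrane protein genes had a median log2 fold change of 0.01 (-0.04 under quantile normalization), and none had an unadjusted p under 0.05. Lamp1 and Lamp2 encode the abundant glycoproteins that line the lysosomal membrane, and they stood in opposite order. Lamp1 was listed at 526 and 532 TPM in the controls and 424 and 462 TPM in CD95ko 1 and 2 (log2 fold change -0.26, 95% limma interval -0.87 to 0.36, adjusted p = 0.692). Lamp2, which is also needed for autophagosome fusion and chaperone-mediated autophagy, was listed at 88.5 and 62.5 TPM in the controls and 113 and 101 TPM in CD95ko 1 and 2 (log2 fold change 0.51, 95% limma interval -0.25 to 1.28, adjusted p = 0.507). Neither interval left out 0, although the groups of each gene did not overlap.

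Cd63, the tetraspanin of late endosomes and exosomes, showed the widest gap between clones in absolute level. It was listed at 1327 and 1286 TPM in the controls, 823 TPM in CD95ko 1 and 1949 TPM in CD95ko 2, so that the clones lay on either side of a narrow pair of controls. The log2 fold change over the groups was -0.04 (95% limma interval -0.94 to 0.85; 0.07 under quantile normalization), and it was 0.58 without CD95ko 1 and -0.67 without CD95ko 2. Of the 25-base stretches of Cd63 transcripts 17.6% occur in another gene, mostly the pseudogene Cd63-ps. Npc1, the cholesterol exporter of the lysosomal membrane, was listed at 10.3 and 6.16 TPM in the controls, 14.0 TPM in CD95ko 1 and 4.98 TPM in CD95ko 2. Npc1 and Npc2, which act in sequence, were thus ordered in opposite ways between the clones. Mcoln1, the calcium channel of the lysosome, had its highest level in control 1 (44.8 TPM) and its lowest in control 2 (14.8 TPM), with the clones between them at 35.8 and 28.9 TPM. Scarb2, the receptor that carries glucocerebrosidase to lysosomes, was listed at 33.6 and 21.0 TPM in the controls and 26.1 and 17.7 TPM in CD95ko 1 and 2, and its groups overlapped.

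Of the 4 V-ATPase genes only Atp6v1h had an unadjusted p under 0.05. Atp6v1h (chromosome 1, 5082978 to 5163213, GRCm38.p6) encodes the H subunit, which couples ATP hydrolysis in the cytosolic sector to proton transport. It was listed at 66.6 and 62.2 TPM in the controls and 33.0 and 34.5 TPM in CD95ko 1 and 2. Both groups were narrow and did not overlap. The log2 fold change of Atp6v1h was -0.91 ± 0.35 SE, with a limma p of 0.0301 before and 0.277 after adjustment, and it lay between -0.96 and -0.86 when each library in turn was left out. The unadjusted limma p of Atp6v1h was 0.0521 without the variance trend, and it was 0.059 without CD95ko 1, 0.0988 without control 1 and 0.0792 without control 2. Atp6v1a, the catalytic subunit of the same sector, was listed at 48.2 and 39.4 TPM in the controls and 48.0 and 34.8 TPM in CD95ko 1 and 2 (log2 fold change -0.09, 95% limma interval -0.96 to 0.77). Atp6v0d1, of the membrane sector, was listed at 106 and 62.9 TPM in the controls and 94.4 and 109 TPM in CD95ko 1 and 2. Atp6ap1, an assembly factor of the pump, was listed at 95.4 and 96.0 TPM in the controls and 121 and 105 TPM in CD95ko 1 and 2 (log2 fold change 0.23, 95% limma interval -0.48 to 0.94). No test was made of the difference between Atp6v1h and these other subunits.

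Tfeb was weakly expressed and its groups overlapped. It was listed at 16.2 and 8.57 TPM in the controls and 9.65 and 20.2 TPM in CD95ko 1 and 2 (log2 fold change 0.23 ± 0.56 SE, -0.02 under quantile normalization, limma adjusted p = 0.883). Each group held 1 library near 9 TPM and 1 above 16 TPM. TFEB is controlled mostly through its location in the cell, which transcript levels do not show. Sqstm1 encodes p62, which links ubiquitinated cargo to autophagosomes and is itself degraded with them, and was the most abundant transcript of the set. It was listed at 2611 and 2850.0 TPM in the controls and 1718 and 2253 TPM in CD95ko 1 and 2. Both clones lay below both controls (log2 fold change -0.47 ± 0.28 SE, limma adjusted p = 0.463), and CD95ko 1 was the lowest library.

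Libraries of the same group differed for many of these genes. On the log2(TPM + 1) scale, 8 of the 36 genes (22.2%) were over 2-fold apart between the clones, against 23.3% of all tested genes. Of the 8, Ctsa, Psap, Smpd1 and Cd63 were higher in CD95ko 2, and Ctsc, Hexa, Gla and Npc1 were higher in CD95ko 1. Between the controls, 2 of the 36 genes (5.56%), Hexa and Mcoln1, were over 2-fold apart, against 14.4% of all tested genes. Control 2 was the lower control for 27 of the 36 genes (75.0%), and the same held for 75.9% of all tested genes. CD95ko 2 was the highest of the 4 libraries for 18 of the 36 genes, where it was the highest for 31.5% of all tested genes. By role, CD95ko 2 exceeded CD95ko 1 for 7 of 8 lipid genes, 4 of 9 detected proteases, 4 of 7 glycosidases, 2 of 6 membrane genes, 2 of 4 V-ATPase genes and both Tfeb and Sqstm1. These are differences between single libraries and carry no test.

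**Figure D4:**
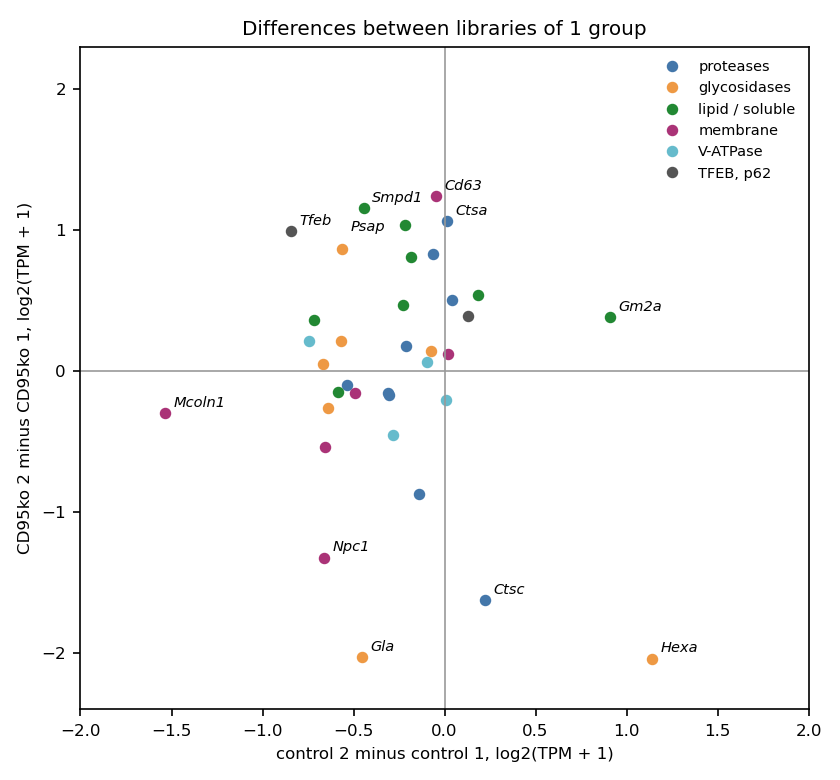
Difference in log2(TPM + 1) between the libraries of a group for 36 lysosomal genes: control 2 minus control 1 on the horizontal axis and CD95ko 2 minus CD95ko 1 on the vertical axis, coloured by role. Hexa (1.14 and -2.04) and Gla (-0.45 and -2.03) lie at the bottom, Cd63 (-0.05 and 1.24) at the top and Mcoln1 (-1.53 and -0.30) at the far left.

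Genes of the wider lysosomal and autophagic system were taken from 6 further lists, of which 110 of 125 genes were tested. None passed an adjusted p of 0.05 in limma, 12 (10.9%) had an unadjusted p under 0.05, 9 of them higher and 3 lower in the clones, and the background for the unadjusted threshold was 14.9%. Under quantile normalization the same threshold was reached by 16 genes, 9 higher and 7 lower. Of all tested genes 16.7% reached it in that fit, 8.66% higher and 8.01% lower. Without CD95ko 1 there were 24 genes under the unadjusted threshold and 7 past the adjusted one, in a fit where 24.3% and 9.26% of all tested genes were so. Without control 2 there was 1 under the unadjusted threshold, where 4.20% of all tested genes lay, and none past the adjusted one. The median log2 fold change of these 110 genes was 0.20, and it was -0.04 without control 2, 0.44 without control 1 and 0.084 under quantile normalization. The other soluble hydrolases had the highest median log2 fold change of these lists (0.59 over 32 genes, 27 of them above 0; 0.37 under quantile normalization). Their members under the unadjusted threshold were Man2b2, Acp5, an acid phosphatase listed at 44.4 and 35.2 TPM in the controls and 70.0 and 80.0 TPM in the clones, and Galc, the galactosylceramidase listed at 23.2 and 12.2 TPM in the controls and 36.4 and 36.8 TPM in the clones. Over the 20 other membrane proteins the median was 0.22 (0.072 under quantile normalization), and Cd164, Abca2 and Ctns had an unadjusted p under 0.05, all higher. Cd164, a sialomucin, was listed at 90.8 and 70.7 TPM in the controls and 137 and 208 TPM in the clones. Abca2, a lipid transporter, was listed at 8.19 and 5.04 TPM in the controls and 18.1 and 22.7 TPM in the clones, and Ctns, the cystine exporter, at 23.1 and 6.54 TPM in the controls and 30.0 and 44.0 TPM in the clones.

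The other V-ATPase genes had a median of -0.10 over 13 genes (-0.17 under quantile normalization). Atp6v0b, of the membrane ring, was listed at 488 and 489 TPM in the controls and 265 and 193 TPM in CD95ko 1 and 2 (log2 fold change -1.11 ± 0.30 SE, limma adjusted p = 0.164, unadjusted 0.00476). Atp6v1f, of the cytosolic sector, was listed at 232 and 270.0 TPM in the controls and at 143 TPM in both clones (log2 fold change -0.81 ± 0.29 SE, limma adjusted p = 0.259, unadjusted 0.0227). In contrast, Atp6v0a1, which encodes one of several alternative membrane subunits, was listed at 20.4 and 4.22 TPM in the controls and 32.4 and 41.0 TPM in the clones (limma adjusted p = 0.255, unadjusted 0.0215). Pump subunit transcripts were thus found on both sides, with Atp6v1h, Atp6v0b and Atp6v1f lower and Atp6v0a1 higher at the unadjusted threshold. None of the 8 tested sorting genes (median log2 fold change -0.01, or -0.22 under quantile normalization) and none of the 17 tested genes of TFEB's relatives and of mTORC1 control (median 0.12, or -0.0038 under quantile normalization) had an unadjusted limma p under 0.05, and none passed after adjustment. Under quantile normalization 1 gene of the TFEB and mTORC1 list had an unadjusted p under 0.05. It was on the lower side, where 8.01% of all tested genes lay. In the autophagy list (median 0.28 over 20 genes, 0.17 under quantile normalization) the members under the unadjusted threshold were Calcoco1, a receptor for reticulum turnover, at 22.1 and 10.7 TPM in the controls and 44.5 and 135 TPM in the clones, the initiating kinase Ulk1 at 7.89 and 3.71 TPM in the controls and 21.5 and 16.2 TPM in the clones, and Uvrag at 31.1 and 26.2 TPM in the controls and 12.4 and 15.3 TPM in the clones.

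**Figure D5:**
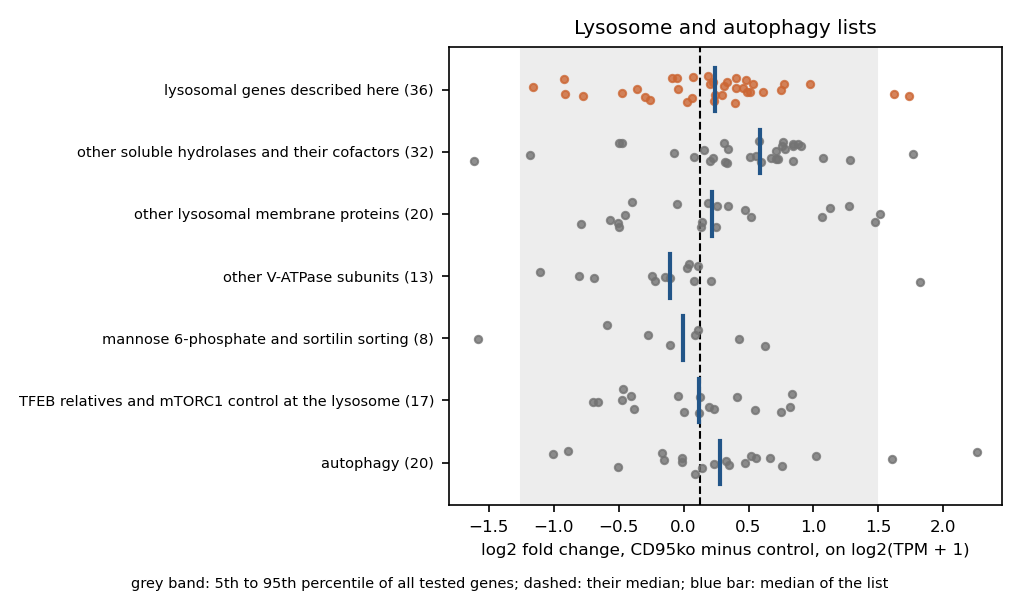
Log2 fold change, CD95ko minus control, on the log2(TPM + 1) scale for each tested gene (points) of the 36 lysosomal genes and of 6 further lists, with the median of each list as a bar and the median of all tested genes (0.13) as a dashed line. List medians run from -0.10 for the other V-ATPase subunits to 0.59 for the other soluble hydrolases. The grey band holds the 5th to 95th percentile of all tested genes.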

How the data were processed

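The authors deposited 1 table per library, with a gene symbol and a TPM value per row, per the file headers. TPM is reads per transcript length, brought to a common sum per library. The submitters' processing notes name STAR 2.6.0, RSEM 1.3.0 and mm10, with no settings. The annotation is not given in the sources used here. Depth cannot be recovered from TPM, so no counting interval or detection limit is given. Groups came from the sample titles. Genes with at least 1 TPM in at least 2 libraries (11167) were compared on log2(TPM + 1) with limma 3.58.1 in R 4.3.3 (lmFit, eBayes with a mean-variance trend, all 4 libraries, no covariate), two-sided, with Benjamini-Hochberg adjustment over all tested genes and a threshold of 0.05. Fold changes on this scale understate changes of weakly expressed genes. An exact permutation test of 2 against 2 libraries cannot give a p under 0.333. The script was tested on simulated data in which 200 of 11167 genes were changed. The adjusted threshold recovered 1% of them at a log2 change of 1, 42.5% at 2 and 99% at 4. In these simulations 3, 94 and 215 genes were called, of which 1, 9 and 17 were false calls. Promoter windows and gene positions came from RefSeq tables (GRCm38.p6), and shared 25-base stretches were counted over GENCODE M21 transcripts. The genes and lists were chosen with earlier results of these data known. By the naming rule, every gene of the set is accounted for, and from each further list those past the adjusted threshold and up to 3 with the smallest unadjusted p under 0.05 are named. Values of some genes of the further lists are not reported here. The alternatives were a pseudocount of 0.1, no filter, a mean TPM of at least 5, eBayes without trend, robust eBayes, quantile normalization, a block for the replicate number, and leaving out each library.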

Additional observations from a re-analysis of the deposited data

How the results depend on the processing

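None of the 36 lysosomal genes passed an adjusted limma p of 0.05 under any of the 7 settings that used all 4 libraries. The number of all genes past it, 6 as reported, was 0 under quantile normalization, at a pseudocount of 0.1, with no filter and with eBayes lacking the trend, 55 at a mean TPM of at least 5, and 52 under robust eBayes. With the replicate block it was 2. Replicate numbers were not taken as pairing, since the departures from the group mean of libraries with a like number had a correlation of -0.081 over the tested genes, and the replicate block changed no call among the lysosomal genes. Quantile normalization reversed 6 log2 fold changes, to -0.12 for Ctsc, -0.17 for Neu1, -0.024 for Smpd1, 0.066 for Cd63, -0.15 for Npc1 and -0.021 for Tfeb, and the cause was not tested. Fits without 1 library assume that the lone library varies like the other group. Across them 0 to 1034 of all genes and 0 to 2 of the lysosomal genes passed the adjusted threshold, 1 to 6 lysosomal genes had an unadjusted p under 0.05, 14 to 23 lay above and 6 to 11 below the other group, and their median log2 fold change was 0.10 to 0.43. For the further lists, 0 to 7 genes passed the adjusted threshold, 1 to 24 the unadjusted one, and the median was -0.041 to 0.44. The log2 fold change ranged from -0.59 to 0.48 for Ctsa, -0.75 to 0.88 for Ctsc, -0.032 to 0.84 for Ctsl, -1.94 to 0.10 for Hexa, -0.40 to 0.46 for Neu1, -0.16 to 0.65 for Npc2, -0.042 to 0.42 for Ppt1, -0.37 to 0.78 for Smpd1, -0.67 to 0.58 for Cd63, -0.62 to 0.032 for Scarb2, -0.59 to 0.73 for Npc1, -0.47 to 1.07 for Mcoln1, -0.063 to 0.68 for Atp6v0d1, -0.32 to 0.13 for Atp6v1a and -0.27 to 0.73 for Tfeb. Fewer libraries make groups less likely to overlap, and other causes were not tested. In these fits 32.4% to 50.6% of all tested genes lay above the other group and 22.1% to 36.3% below it. The lysosomal genes above it numbered 20 of 36 without control 1, where 50.6% of all tested genes lay. They numbered 17 without CD95ko 2, 14 without control 2 and 23 without CD95ko 1, where 46.3%, 32.4% and 42.8% lay. Depth is unknown, so what lies below the reach of a library, Ctsf included, cannot be said.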
